A study of Danio rerio with 6 samples.

Results

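The transcripts of NF-kB factors, their IkB inhibitors and the IkB kinase were followed in whole zebrafish larvae with and without a microbiota. Members were the probesets whose platform gene symbol starts with nfkb or ikbk, or is rel, rela, relb or tnfaip3. The rule found 7 probesets for 7 genes among 15502 tested: the inhibitors nfkbiaa, nfkbiab and nfkbib, the nuclear IkB gene nfkbiz, the factors nfkb2 and relb, and the kinase subunit ikbkg. Each gene had 1 probeset, so no member could be checked against a second one, and other genes of the family, such as rela and tnfaip3, are not analysed here.

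The colonized group, called conventionalized in the labels, was raised germ-free to day 3 after fertilization and then kept with a conventional zebrafish microbiota to day 6. The other group was germ-free throughout. Both groups were gnotobiotic larvae of strain C32 sampled at day 6, with 3 pools of 28 to 80 whole larvae each and 1 one-colour array per pool. A value is therefore an average over many animals and all organs, and a change in the number of cells of a type and a change in RNA per cell cannot be told apart. Arrays of a group were alike, with mean correlations of log2 values of 0.988 to 0.990 among colonized and 0.977 to 0.985 among germ-free pools; germ-free replicate 3 was the least like its group, and both calls described here held without it.

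NF-kB is a family of dimeric transcription factors that IkB proteins hold inactive in the cytoplasm. When a receptor for microbial products or cytokines is engaged, the IkB kinase marks the inhibitor for degradation by the proteasome, and the freed dimer enters the nucleus. In mammals the gene of IkB alpha is itself a target of NF-kB, which makes newly made inhibitor part of a negative feedback. In zebrafish larvae the intestine is a main surface that meets the microbiota.

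Transcripts of both IkB alpha genes, nfkbiaa and nfkbiab, were higher in colonized larvae, by 2.54-fold and 1.91-fold in mean intensity. The other 5 members were not called, and of these nfkb2, nfkbib and ikbkg had their colonized pools above their germ-free pools by smaller margins. Of the 7 probesets, 2 were called higher and 0 lower at an adjusted p under 0.05 (limma, Benjamini-Hochberg over all probesets), where 1.28% of all tested probesets were called higher and 0.413% lower. Without adjustment, 5 of 7 had a limma p under 0.05, against 2050 of all 15502 tested probesets. All colonized pools lay above all germ-free pools in 5 of 7 members, against 12.5% of all probesets. The members were chosen with earlier results of these data known, so these shares are a description and not a test. The median log2 change of the members was 0.32 and that of all probesets 0.02; log2 changes are colonized minus germ-free on the log2(intensity + 32) scale, which understates changes of dim probesets.

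**Figure D1:**
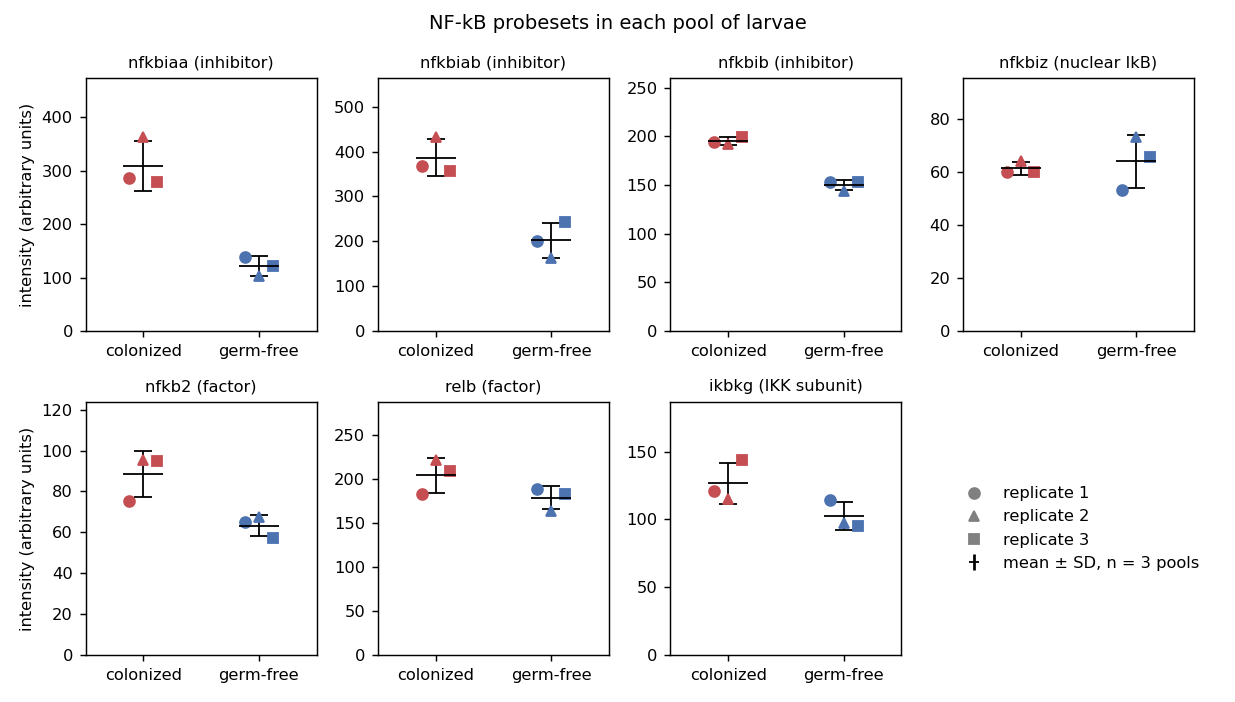
Intensity of each NF-kB probeset in the 3 colonized and 3 germ-free pools (y axis from 0, arbitrary units; points are pools, with the marker giving the replicate number; bars are the mean and SD). The groups are apart for nfkbiaa, nfkbiab, nfkbib, nfkb2 and ikbkg, and overlap for relb and nfkbiz.

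The inhibitor nfkbiaa, 1 of a pair of zebrafish genes for IkB alpha, had intensities of 286, 364 and 279 in colonized replicates 1 to 3, against 139, 103 and 122 in germ-free replicates 1 to 3. The groups did not overlap: the lowest colonized pool was 2.00 times the highest germ-free pool. Its mean was 309 ± 47.1 in colonized and 122 ± 18.2 in germ-free larvae (SD, n = 3 pools each). The log2 change was 1.15 ± 0.13 (SE; 95% interval 0.86 to 1.44; limma adjusted p = 0.00122). It ranked 45th by size of rise among the 199 probesets called higher. It was called under all 14 alternative settings, with log2 changes of 0.88 to 1.24 and adjusted p-values of 0.000422 to 0.00891.

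The second IkB alpha gene, nfkbiab, had 368, 433 and 357 in colonized replicates 1 to 3, against 202, 163 and 242 in germ-free replicates 1 to 3. The groups were again apart, and germ-free replicate 3 was the nearest to the colonized pools. Its mean was 386 ± 41.2 in colonized and 202 ± 39.7 in germ-free larvae (SD, n = 3 pools each), and the log2 change was 0.84 ± 0.14 (SE; 95% interval 0.54 to 1.15; limma adjusted p = 0.0115). It ranked 88th among the probesets called higher. The call was lost without colonized replicate 1 (log2 change 0.87, adjusted p = 0.0566) or colonized replicate 2 (0.77, adjusted p = 0.0852), while the direction stayed; without germ-free replicate 3 the log2 change was 0.97 (adjusted p = 0.00131).

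The rise of nfkbiaa was larger than that of nfkbiab by 0.31 ± 0.12 on the log2 scale (SE, with a 95% interval of -0.03 to 0.64). This interval is an ordinary t interval with pooled variance and is not from the limma fit. In all 3 colonized pools the difference between the log2 values of the pair exceeded that in all 3 germ-free pools, and the two-sided exact permutation p was 0.1. This is the smallest p that 3 pools against 3 can give, and after adjustment over the 21 pairs of members it was 0.175. The permutation test could therefore not have shown a difference, whatever the values. As the 95% interval included 0, the pair was not shown to differ in response. With 16 in place of 32 added to the intensities the difference was 0.35, and with 100 added it was 0.19. The pairs were compared after the values had been seen.

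The inhibitor nfkbib, the IkB beta gene, had 194, 192 and 199.5 in colonized replicates 1 to 3, against 154, 144 and 153 in germ-free replicates 1 to 3. Its groups were apart by 1.25 times between the nearest pools, and the 3 pools of each group lay close together. The means were 195 ± 3.87 and 150.2 ± 5.21 in colonized and germ-free larvae (SD, n = 3 each). The log2 change of 0.32 ± 0.09 (SE; 95% interval 0.12 to 0.52) was not called (limma adjusted p = 0.135; unadjusted p = 0.00509). It was called under 0 of 14 alternatives, with adjusted p-values of 0.0746 to 0.379.

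The gene nfkbiz encodes a nuclear IkB protein that in mammals acts on NF-kB at promoters. It had 60.2, 64.2 and 59.99 in colonized replicates 1 to 3, against 53.4, 73.4 and 65.7 in germ-free replicates 1 to 3. The colonized pools lay within the range of the germ-free pools. The log2 change was -0.04 ± 0.10 (SE; 95% interval -0.26 to 0.18; limma adjusted p = 0.915), and its sign turned with array weights (0.05) and without germ-free replicate 2 (0.03). These intensities were below the array medians of 86.0 to 93.8, so that a small change could be missed.

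Of the factors, nfkb2 encodes a precursor that holds its partner in the cytoplasm until it is cut to the active subunit in the non-canonical pathway. It had 75.3, 95.2 and 94.97 in colonized replicates 1 to 3, against 64.8, 67.4 and 57.3 in germ-free replicates 1 to 3. The groups were apart, with colonized replicate 1 the nearest to the germ-free pools. The log2 change of 0.34 ± 0.10 (SE; 95% interval 0.11 to 0.56) was not called (limma adjusted p = 0.162; unadjusted p = 0.00741), and the alternatives gave adjusted p-values of 0.0849 to 0.486.

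The usual partner of the cut nfkb2 product is encoded by relb. It had 182, 221 and 208 in colonized replicates 1 to 3, against 189, 164 and 183 in germ-free replicates 1 to 3. Colonized replicate 1 fell inside the germ-free range. The log2 change was 0.16 ± 0.10 (SE; 95% interval -0.07 to 0.40; limma adjusted p = 0.549), an interval that leaves room for a rise as large as that of nfkb2.

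The kinase subunit gene ikbkg, which encodes the regulatory subunit NEMO of the IkB kinase, had 121, 115 and 143 in colonized replicates 1 to 3, against 114, 97.1 and 95.4 in germ-free replicates 1 to 3. The groups were apart by only 1.01 times between the nearest pools. The log2 change of 0.24 ± 0.11 (SE; 95% interval 0.00 to 0.47) was not called (limma adjusted p = 0.374; unadjusted p = 0.0486).

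**Figure D2:**
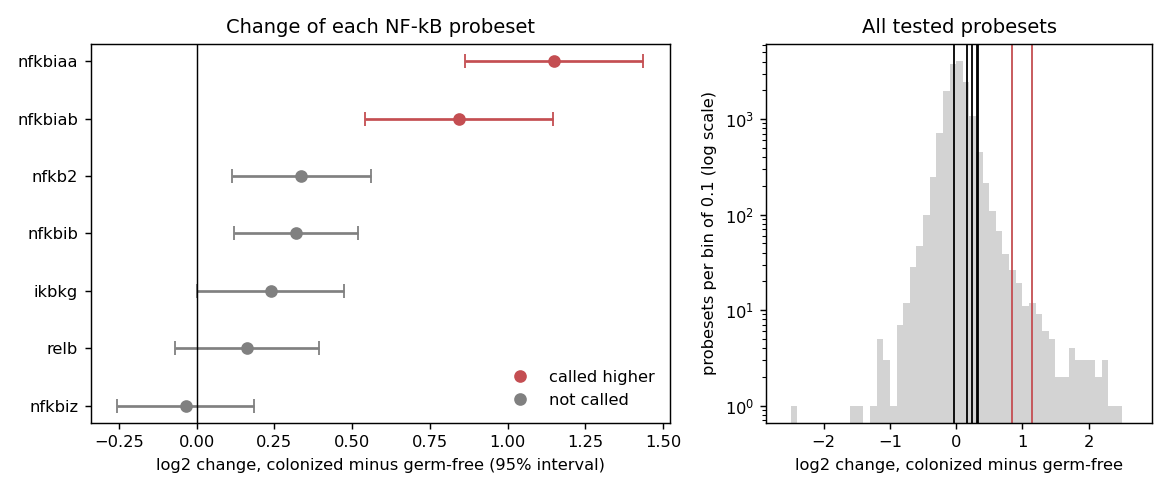
Left, log2 change (colonized minus germ-free, x axis) of each NF-kB probeset with its 95% interval, with nfkbiaa (1.15) and nfkbiab (0.84) called higher. Right, all 15502 tested probesets by log2 change, with counts on a log axis and the 7 members as vertical lines (red, called; black, not called; nfkbib and nfkb2 nearly coincide).

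The members did not share one order of pools. Colonized replicate 2 was the highest colonized pool for 5 of 7 members, nfkbiaa and nfkbiab among them, and the lowest for nfkbib and ikbkg. Germ-free replicate 2 was the lowest germ-free pool for 4 members, again with nfkbiaa and nfkbiab, and the highest for nfkb2 and nfkbiz. Over the 21 pairs of members, the difference between their log2 values did not overlap between groups in 12, each with an exact permutation p of 0.1 (adjusted 0.175). All of these but nfkb2 with nfkbiz and nfkbib with nfkbiz included nfkbiaa or nfkbiab, the called members. The share among pairs of all probesets was not counted. As 0.1 is the smallest p possible here, this test could not have shown any pair to differ, and the 21 pairs reuse the same 7 probesets. By estimate, the rise of nfkbiaa was larger than that of nfkb2 by 0.81 ± 0.16 (log2, SE; 95% interval 0.37 to 1.26). Against nfkbib it was larger by 0.83 ± 0.15 (0.43 to 1.23), and against relb by 0.99 ± 0.10 (0.72 to 1.25). Among the intervals of nfkbiaa against other members, only that against nfkbiab included 0. The intervals were not adjusted for the 21 pairs.

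**Figure D3:**
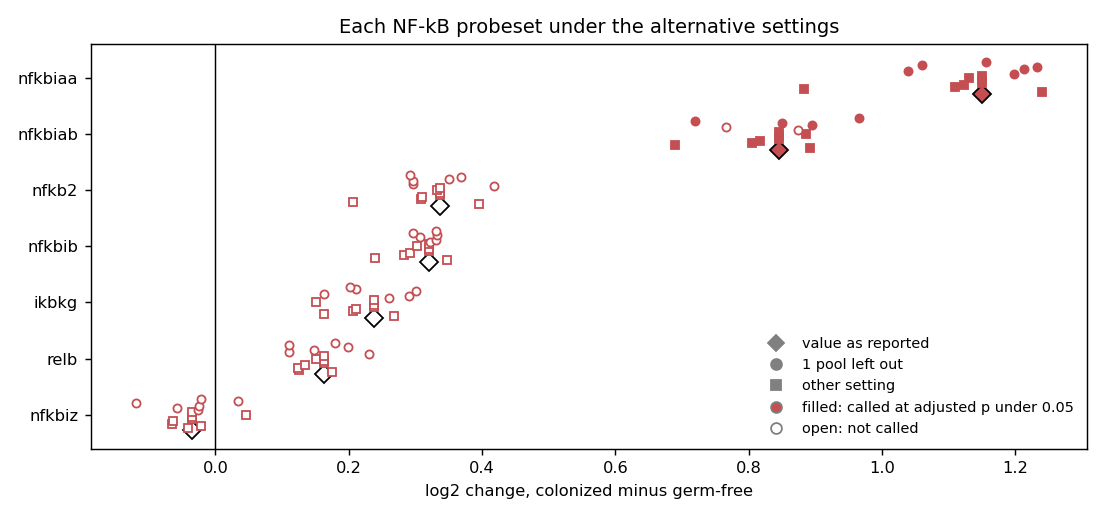
Log2 change (x axis) of each NF-kB probeset as reported (diamond), with 1 pool left out (circles) and under the other settings (squares); filled symbols were called. All settings called nfkbiaa, all but those without colonized replicate 1 or 2 called nfkbiab, none called another member, and nfkbiz crosses 0 with array weights and without germ-free replicate 2.

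Some measures of the pools ran along with these rises. For acta1, signal at the 3' end over signal at the 5' end (control probesets, log2), a sign of RNA quality, was 2.98, 3.00 and 2.79 in the colonized pools and 2.35, 2.64 and 2.47 in the germ-free pools, whereas for gapdh the groups overlapped. Of 5 measured neutrophil markers 4 were called higher, with a summed intensity of 1309 to 1670 in colonized larvae and 614 to 676 in germ-free larvae. The marker not called was mpx, at 224 ± 13.8 in colonized and 166 ± 18.2 in germ-free larvae (SD; log2 change 0.38, limma adjusted p = 0.130). This was the brightest of 4 mpx probesets, of which 1 was called. Within the sum, mmp13a, also on the target list below, had means of 509 in colonized and 101 in germ-free larvae. Of 4 macrophage markers 1 was higher, with sums of 262 to 321 in colonized larvae and 218 to 239 in germ-free larvae. For 5 markers of other leukocytes, 2 of them called higher, the sums overlapped (5655 to 5841 in colonized larvae, 5284 to 6068 in germ-free larvae). They were carried by cpa5, with means of 5391 in colonized and 5460 in germ-free larvae, and so say little of the other markers. Those called were lcp1 (175 in colonized, 80.7 in germ-free larvae) and coro1a (90.2 and 46.1 in the same order). The groups were also apart for ptprc (31.8 and 23.8, limma adjusted p = 0.340, not called), and they overlapped for rag1 (57.3 and 54.7). Hepatocyte markers were higher in 3 of 6 (tfa, fgb and uox), with sums of 12444 to 15814 in colonized larvae and 9551 to 10935 in germ-free larvae. Within the sum, tfa had means of 3421 in colonized and 1922 in germ-free larvae. The hepatocyte markers fabp10a (log2 change 0.22, limma adjusted p = 0.467), apoa2 (0.17, 0.453) and apoba (-0.04, 0.963) were not called, and their groups overlapped. Enterocyte markers were lower in 4 of 7, with sums of 6656 to 8761 in colonized larvae and 9512 to 10499 in germ-free larvae. The other 3 were not called and did not share a direction. Of these, vil1 had its colonized pools above its germ-free pools (351 ± 41.1 against 248 ± 53.4, SD, log2 change 0.46, limma adjusted p = 0.173). The log2 change was 0.10 for apoa1a and -0.27 for apoa4b.1. The call of marco, the 1 called macrophage marker, was lost without colonized replicate 2 or 3 or germ-free replicate 1 or 2 (limma adjusted p 0.0561 to 0.0977), and that of the neutrophil list's nccrp1 without any one pool but germ-free replicate 3 (0.0606 to 0.178). Both measured erythrocyte markers were higher, with sums of 1001 to 1778 in colonized larvae and 343 to 639 in germ-free larvae. Photoreceptor and lens markers were lower in 3 of 4, with sums of 8147 to 8999.8 in colonized larvae and 10490 to 10790 in germ-free larvae. Exocrine pancreas markers were lower in 1 of 3, with sums of 6485 to 8921 in colonized larvae and 9591 to 9955 in germ-free larvae. Each call in the erythrocyte, photoreceptor and lens, and pancreas lists (hbbe2, alas2, gnat2, opn1mw1, crybb1 and cpa1) was lost when certain single pools were left out (limma adjusted p 0.0550 to 0.214). For crybb1 this held for every single pool, and also for no intensity trend (0.158) and the replicate block (0.0816). Of the enterocyte calls, rbp2a was lost without colonized replicate 1 or 2 or germ-free replicate 1 (limma adjusted p 0.0598 to 0.0852). The call of fabp6 was lost without colonized replicate 2 (0.0648). For muscle, neuron and epidermis markers the sums overlapped between the groups. The part of RNA quality and of these cell types in the rises of nfkbiaa and nfkbiab was not tested. Markers of 11 cell types, 48 genes in all, were each above 0 in the whole-larva samples. As present calls were not used, a value above 0 does not show that a gene was expressed. Of the 48, 2 had a mean below 32, ptprc (27.8, the lowest) and the macrophage marker csf1ra (29.8).

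The genes around the members were taken from 5 lists, each gene by its brightest probeset and without the members themselves. Over all 8793 genes, 1.51% were called higher and 0.535% lower, with a median log2 change of 0.02. A matched symbol was found for 14 of 55 listed receptors and adaptors, 10 of 20 kinases and 13 of 15 genes of the degradation machinery. It was found for 17 of 38 other negative regulators and 36 of 64 targets. Listed genes without a match are not analysed here. Of receptors and adaptors that lead to NF-kB, 1 of 14 measured genes rose, 0 fell and 13 were not called (median 0.10). Among the 14, tlr21 and card9 had mean intensities below 32, where the added 32 leaves little room to see a change. The gene that rose was birc2, a ubiquitin ligase of the tumour necrosis factor receptor complex, at 746 ± 7.25 in colonized and 530 ± 49.7 in germ-free larvae (SD, n = 3; limma adjusted p = 0.0373). Its call was lost in 6 of 14 alternatives, with the replicate block (adjusted p = 0.0672) and without any one pool but germ-free replicate 3 (0.0836 to 0.209). The kinase gene map3k7, which activates the IkB kinase, had 83.7 in colonized and 74.2 in germ-free larvae (adjusted p = 0.703).

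Of kinases that partner with the IkB kinase or act beside it, 0 of 10 were called by limma (median 0.05). At an unadjusted p under 0.05 there was 1 gene, chuk, the catalytic partner of ikbkg, at 112 ± 6.72 in colonized and 92.3 ± 3.99 in germ-free larvae (SD, n = 3; log2 change 0.21, unadjusted p = 0.0407, limma adjusted p = 0.349). The IkB kinase relative tbk1 had 149.8 in colonized and 164 in germ-free larvae on the brighter of 2 probesets (adjusted p = 0.780). Of the machinery that ubiquitinates and degrades IkB, 0 of 13 genes were called (median -0.01). At an unadjusted p under 0.05 there was 1, cul1b (480.3 ± 30.5 in colonized and 392 ± 56.6 in germ-free larvae, SD, n = 3, limma adjusted p = 0.330). Neither chuk among 10 kinases nor cul1b among 13 genes stands out, as 2050 of all 15502 tested probesets had an unadjusted limma p under 0.05. The fbxw11 genes, which encode the F-box protein that recognises phosphorylated IkB, had 88.6 in colonized and 83.8 in germ-free larvae for fbxw11a (adjusted p = 0.822), and 231 and 209.9 in the same order for fbxw11b (adjusted p = 0.657).

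Of other negative regulators of the pathway, 3 of 17 rose, 0 fell and 14 were not called (median 0.15). Among those not called, rnf11b and tnfaip8l2a had mean intensities below 32, where a change is hard to see. Those that rose are known chiefly as inhibitors of cytokine receptor signalling through JAK kinases and STAT factors. The cytokine signalling suppressor socs3a was the largest, at 538 ± 10.9 in colonized and 147 ± 44.5 in germ-free larvae (SD, n = 3; log2 change 1.70 ± 0.16 SE, limma adjusted p = 0.00034). Its paralog socs3b had 249 ± 37.1 in colonized and 119 ± 26.6 in germ-free larvae (adjusted p = 0.0131), and its call was lost when colonized replicate 2 (0.0912) or 3 (0.0566) was left out. The phosphatase gene ptpn6, expressed in leukocytes, had 69.4 ± 15.7 in colonized and 34.6 ± 0.158 in germ-free larvae (adjusted p = 0.0268), lost in 4 alternatives that left out a pool (0.0593 to 0.0977). The count of called genes was 1 without colonized replicate 2 or 3, and 5 without germ-free replicate 3 or with array weights.

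Of genes that textbooks give as NF-kB targets, mostly from mammals, 12 of 36 rose, 0 fell and 24 were not called (median 0.25). Colonized pools lay above germ-free pools in 19 of the 36, against 13.9% of all genes. The list was chosen with earlier results of these data known, so its counts describe the list and are no test of NF-kB activity. The largest rises were those of the matrix metalloproteinase mmp9 (log2 change 2.39), the complement gene c3a.1 (2.25), the serum amyloid gene saa (2.09), mmp13a (2.02), the complement gene c4b (1.80), the C/EBP factor genes cebpd (1.24) and cebpb (1.00) and the stress gene gadd45ba (0.90), with limma adjusted p-values of 3.57e-05 to 0.0162. The immediate early gene junbb rose, at 302 ± 23.2 in colonized and 183 ± 29.9 in germ-free larvae (SD, n = 3; adjusted p = 0.0251), and mcl1a, ptgs2a and vim, named after their values were seen, were the other 3 called; ptgs2a lost its call in 5 of 14 alternatives and vim in 10. The mitochondrial dismutase gene sod2, a target in mammals, had 321 in colonized and 342 in germ-free larvae (adjusted p = 0.778). The rise of cebpb was lost without colonized replicate 1 or 2 or germ-free replicate 1 (adjusted p 0.0598 to 0.0874). That of gadd45ba was lost without the same pools or germ-free replicate 2 (0.0578 to 0.108), and that of junbb without any one pool but germ-free replicate 3 (0.0793 to 0.109). Called targets numbered 7 without colonized replicate 1, colonized replicate 2 or germ-free replicate 1. The list mixes tissues: mmp13a is also among the neutrophil markers, and c3a.1 and c4b are made largely by the liver. Values of whole larvae do not give the organ in which saa was made.

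**Figure D4:**
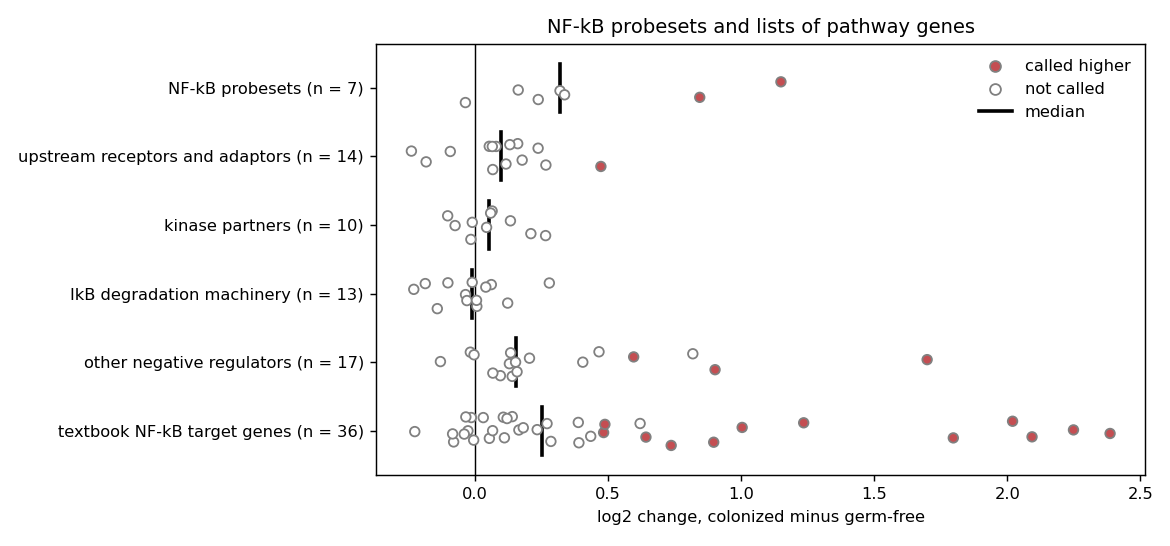
Log2 change (x axis, colonized minus germ-free) of the 7 NF-kB probesets and of the genes of 5 pathway lists; points are genes, filled where called higher, and the black bars are medians (points are spread vertically for legibility only). The medians are 0.32 for the NF-kB probesets, 0.25 for the targets, 0.15 for other negative regulators, and -0.01 to 0.10 for the other 3 lists.

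The genes most like nfkbiaa over the 6 arrays, by the Euclidean distance between log2 values centred on each gene's mean, were cox4i1l (distance 0.25), steap4 (0.31), ddit4 (0.38), ctsla (0.39), the fibrinogen chain fgg (0.43) and the leukocyte actin-bundling gene lcp1 (0.44), out of 5680 probesets with 1 symbol and a mean of at least 100 in the higher group. Those most like nfkbiab were igfbp1a (0.18), wu:fa03e10 (0.22), arrdc2 (0.24), tdh (0.26), ulk1b (0.26) and cldc1 (0.28). No gene stood on both lists. Germ-free means were below 100 for cox4i1l (54.5), steap4 (76.8), ddit4 (33.6) and lcp1 (80.7) near nfkbiaa and for cldc1 (94.1) near nfkbiab. These genes passed the filter only through their colonized pools. The distance between nfkbiaa and nfkbiab was 0.48, and 33 of the 5680 probesets lay nearer to nfkbiab than nfkbiaa did. All these profiles share the arrays and the division into 2 groups, so a small distance describes these pools and no more. In germ-free replicate 3, nfkbiab was the highest of the germ-free pools, and nfkbiaa lay between the other two.

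**Figure D5:**
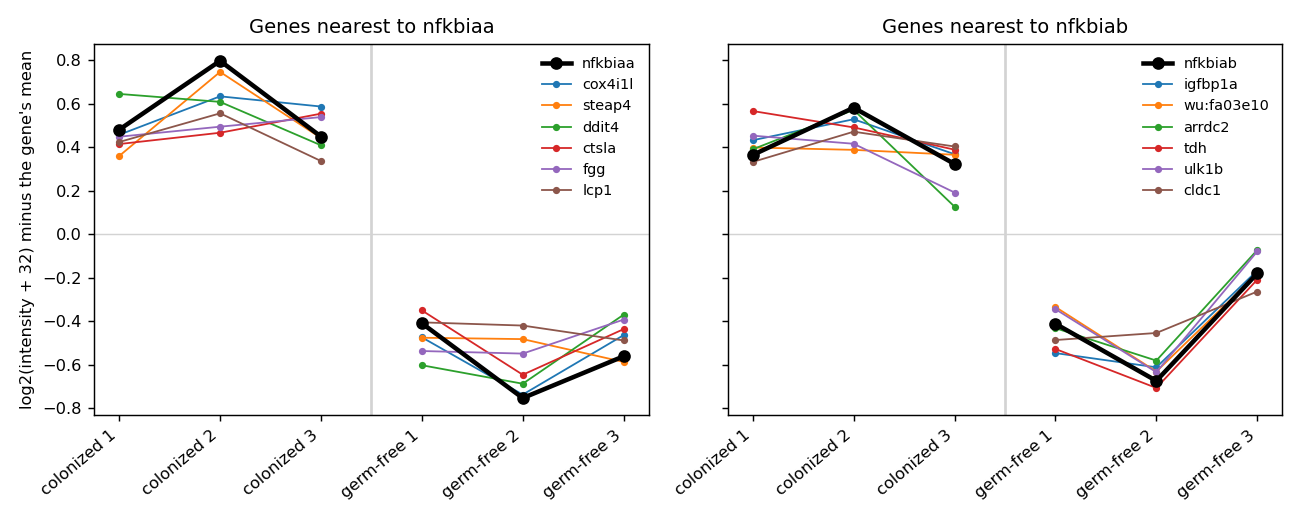
Log2(intensity + 32) minus each gene's mean (y axis) in the 6 pools (x axis), for nfkbiaa (left) and nfkbiab (right) in black with the 6 nearest genes in colour; lines join pools of a group for legibility only. All colonized values lie above 0 and all germ-free values below it. The genes were chosen for nearness to a called member, so this is no separate result.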

How the data were processed

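Total RNA of each pool (12 ug) was turned into biotin-labelled cRNA, and 20 ug of it was hybridised to an Affymetrix zebrafish array, per the labels' protocols. The authors normalized the arrays by the invariant set method and deposited intensities on a linear scale from the PM-MM model of dChip, per the series' design text; this step would take out a shift common to most genes. Present and absent calls were not used. Groups and replicate numbers came from the labels.

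The table held 15617 probesets; 115 controls were left out and 15502 tested. Symbols of the platform annotation were brought up to date by Entrez identifier from a GRCz12tu table, used only for naming (10711 of 10795 single-symbol probesets found). Lists were matched by current symbol, and of 21 genes set to be named in any case 10 were matched; the other 11, myd88 and tnip1 among them, are not analysed here.

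The deposited intensities were analysed as log2(intensity + 32) with limma 3.58.1 in R 4.3.3 (group as the only term, variances with an intensity trend, two-sided, Benjamini-Hochberg over 15502 probesets, called at adjusted p under 0.05). The fit was tested on simulated data. Every adjusted p of a gene is from this fit; differences between members used exact permutation of pools. Named were all members, up to 8 called genes of each list by size, the set above, and the 6 nearest genes of each called member. The members and lists were chosen with earlier results of these data known. Median intensities per array were 86.0 to 93.8, 0 pairs of arrays were identical, and precision is limited by the number of pools. The alternatives were added values of 16 and 100, quantile normalization, median centring, a mean intensity of at least 50, no intensity trend, array weights, the replicate number as a block, and leaving out each pool.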

Additional observations from a re-analysis of the deposited data

How the results depend on the processing

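The 2 calls among the 7 members held under 12 of 14 alternatives, and without colonized replicate 1 or 2 the count was 1, since nfkbiab was lost (log2 change 0.87, adjusted p = 0.0566, and 0.77, adjusted p = 0.0852; limma with 5 arrays); leaving out 1 pool gave log2 changes of 0.72 to 0.97 for nfkbiab and 1.04 to 1.23 for nfkbiaa. The log2 change of nfkbiz, never called, turned to 0.046 with array weights, and on leaving out 1 pool it ran between -0.12 (without germ-free replicate 1) and 0.033 (without germ-free replicate 2). All probesets called numbered 263, with 569 under array weights and 114 to 410 on leaving out 1 pool (lowest without colonized replicate 2, highest without germ-free replicate 3). The share of calls that were higher was 75.7% and became 61.4% after quantile normalization; the cause was not tested. Same-numbered pools of the groups had correlations of their deviations from the group means of -0.0841, 0.0971 and 0.0693. Colonized replicate 1 correlated best with germ-free replicate 2, and colonized replicate 3 with germ-free replicate 1 (0.0911). Colonized replicate 2 correlated best with germ-free replicate 2. Such small correlations, from 3 pools per group, cannot decide whether same-numbered pools were matched. With the replicate block 274 probesets and 2 members were called (limma, nfkbiaa adjusted p = 0.00359, nfkbiab 0.0225). Probesets below the array medians, such as nfkbiz and the germ-free nfkb2 values, limit what could be seen.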

Other observations

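Beside the called genes, the pathway lists held 74 genes that were not called. In 14 of these the groups did not overlap and the unadjusted limma p was under 0.05, with colonized pools above in 13. For all genes, called ones included, colonized pools lay above germ-free pools in 13.9%. An unadjusted limma p under 0.05 was found for 2050 of all 15502 probesets. The share of all genes that met both conditions without a call was not counted. The 14 genes were picked after their values were seen. The smallest p among them was that of socs1a, a suppressor of cytokine signalling, at 149 ± 17.5 in colonized and 98.5 ± 7.86 in germ-free larvae (SD, n = 3; log2 change 0.47, limma adjusted p = 0.0602), and a second, dimmer probeset of socs1a was called (132 ± 11.9 in colonized and 85.2 ± 5.52 in germ-free larvae; log2 change 0.48, adjusted p = 0.0359). The stress response factor gene atf3 had 181 ± 2.01 in colonized and 131 ± 10.7 in germ-free larvae (limma adjusted p = 0.0809). For the survival gene mcl1b the values were 291 ± 9.37 and 182 ± 53.9 in the same order (limma adjusted p = 0.0963). The phosphatase gene dusp1 had 518 ± 73.3 in colonized and 292 ± 124 in germ-free larvae (log2 change 0.82, adjusted p = 0.120), where germ-free replicate 3, at 434, lay close to the lowest colonized pool, at 438. The immunoproteasome gene psmb9a was the 1 gene of the 14 with colonized pools below, at 84.7 ± 8.001 in colonized and 104 ± 3.39 in germ-free larvae (adjusted p = 0.329).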
